A study of Homo sapiens with 18 samples.

Results

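The mitochondrially encoded transcripts are the RNAs read from the mitochondrial genome itself, and here they were taken as every row of the count table whose symbol begins with MT-. This gave 37 of 56609 rows, of which 13 are mRNAs, 2 are rRNAs and 22 are tRNAs, and all 37 lie on chrM of hg38, a circle of 16569 bases. The libraries came from HG3, MEC2 and PCL12, EBV-positive cell lines established from chronic lymphocytic leukemia (CLL), each a line of its own and none of them primary cells. For each line 3 libraries were made from cells stimulated for 4 h with ODN-2006 at 2.5 μg·mL−1, a class B CpG oligonucleotide that is an agonist of human TLR9, and 3 from unstimulated cells cultured in the same medium, 18 libraries in all. The 2 groups of a line differ only in the CpG stimulation, and the labels do not say whether replicates were separate cultures, so that the spread between them may be technical in part.

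Mitochondrial DNA is transcribed from both strands as long precursor RNAs, and the tRNAs that lie between most of the other genes are cut out to release the mRNAs and rRNAs. The mRNAs encode subunits of complexes I, III and IV of the respiratory chain and of ATP synthase, while the rRNAs and tRNAs serve the mitochondrial ribosome. All factors that copy, transcribe, cut and degrade these RNAs are encoded in the nucleus, and lymphocytes that are activated to grow are known to enlarge their mitochondrial mass.

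The gene models used here overlap in places. The annotation at which the counts were made is not given and may differ from them. MT-ATP8 and MT-ATP6 share 46 bases, MT-ND4L and MT-ND4 share 7, and MT-ATP6 and MT-CO3, as well as MT-TC and MT-TY, share 1, so that reads in these stretches belong to both members of a pair. The stretch at chrM:8507-8592 on the plus strand is shown with the shared bases of MT-ATP8 and MT-ATP6 in capitals, because the levels of these 2 ATP synthase genes cannot be told apart there.
MT-ATP8 to MT-ATP6: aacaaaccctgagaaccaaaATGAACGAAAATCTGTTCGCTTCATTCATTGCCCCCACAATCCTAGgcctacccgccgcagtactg
Copies of mitochondrial genes in the nuclear genome, called mitochondrial pseudogenes here, are a second source of shared reads. MTCO1P12 at chr1:631074-632616 is 98.7% identical to MT-CO1, with 20 mismatches and 1 gap base. A stretch of 100 bases at the same position of each, at chrM:6204-6303 and chr1:631374-631473, is shown with the 4 bases that differ in capitals.
MT-CO1: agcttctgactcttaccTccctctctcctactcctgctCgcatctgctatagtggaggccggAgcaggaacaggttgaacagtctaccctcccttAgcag
MTCO1P12: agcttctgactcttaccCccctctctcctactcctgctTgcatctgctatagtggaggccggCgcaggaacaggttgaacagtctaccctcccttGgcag
The tRNA genes are shorter than the 100-base reads. MT-TT (tRNA-Thr, chrM:15888-15953, plus strand) and MT-TP (tRNA-Pro, chrM:15956-16023, minus strand) had the highest counts of all tRNAs and are shown for that reason, whereas MT-TK (tRNA-Lys, chrM:8295-8364), MT-TG (tRNA-Gly, chrM:9991-10058), MT-TR (tRNA-Arg, chrM:10405-10469) and MT-TL2 (a tRNA-Leu, chrM:12266-12336), all on the plus strand, are shown because no library had a count for them. These 6 sequences, each in the direction of its own RNA and with no base marked, were equal to the genome.
MT-TT: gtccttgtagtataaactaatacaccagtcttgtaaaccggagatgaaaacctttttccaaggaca
MT-TP: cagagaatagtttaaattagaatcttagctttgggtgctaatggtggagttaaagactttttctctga
MT-TK: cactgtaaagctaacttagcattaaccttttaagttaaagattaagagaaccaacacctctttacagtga
MT-TG: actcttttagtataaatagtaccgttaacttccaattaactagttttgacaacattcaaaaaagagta
MT-TR: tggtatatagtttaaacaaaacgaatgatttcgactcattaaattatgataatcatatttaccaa
MT-TL2: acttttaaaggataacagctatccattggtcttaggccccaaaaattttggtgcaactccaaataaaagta

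Libraries held between 20382943 and 67308932 counts, and between 20115 and 29719 rows had at least 1 count. The 6 B-cell markers summed to 1962 to 3415 counts per 1000000 counts of the library (CPM) in every library, while markers of T cells stayed at or below 2.42 CPM, of myeloid cells at or below 1.87, of platelets at or below 0.342 and of erythroid cells at or below 0.0902. PCL12 replicates 2 and 3, with and without CpG, stood apart from replicate 1. Nuclear genes were picked that reached 20 CPM in all MEC2 libraries while PCL12 replicate 1 had no more than 10% of their mean MEC2 level. Of these 44 genes the median gene stood at 29.4 to 31.9% of the MEC2 level in these 4 libraries. These genes were chosen for being low in replicate 1, where the median was 2.28 and 2.38%. The calls between PCL12 and the other lines are therefore also given without these 4 libraries, and the source of these transcripts was not tested. It is therefore not settled whether these 4 libraries hold PCL12 cells alone, and values over all PCL12 libraries include them.

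To learn how much of each library the mitochondrial genome supplied, the counts of all 37 rows were summed and expressed as a percentage of the library total. The share ranged from 2.82 to 20.2%, with a median of 7.08%. In unstimulated HG3 it was 8.16, 20.2 and 8.21% (replicates 1, 2 and 3), and after CpG it was 8.14, 9.28 and 6.42%. Unstimulated MEC2 had 6.34, 7.44 and 6.76%, and CpG-treated MEC2 had 4.73, 19.7 and 5.78%. Unstimulated PCL12 had 8.20, 3.58 and 5.67%, and CpG-treated PCL12 had 7.39, 5.40 and 2.82%. The 95% Wilson interval of each share was at most 0.0171 percentage points to either side and covers counting error only.

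**Figure D1:**
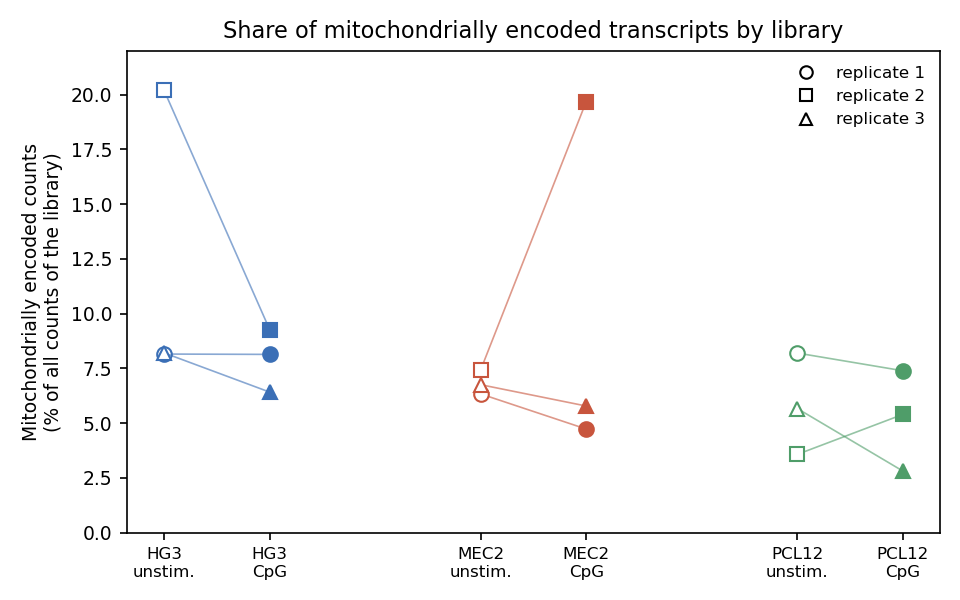
Summed counts of the 37 mitochondrially encoded rows in percent of all counts of the library (y axis), for unstimulated (open) and CpG-treated (filled) libraries of the 3 lines (x axis); symbols mark the replicate and lines join libraries of the same replicate. The highest libraries are unstimulated HG3 replicate 2 (20.2%) and CpG-treated MEC2 replicate 2 (19.7%), and stimulated and unstimulated libraries overlap in every line.

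Stimulated and unstimulated libraries overlapped in every line, and the share was lower after CpG in 7 of 9 replicate pairs, namely 3 in HG3, 2 in MEC2 and 2 in PCL12. In HG3 replicate 1 the pair differed by 0.0157 percentage points. The group means were 12.2% ± 6.93 (SD, n = 3) in unstimulated and 7.95% ± 1.44 in CpG-treated HG3, 6.84% ± 0.555 and 10.1% ± 8.34 for the same order in MEC2. For PCL12 they were 5.82% ± 2.32 and 5.20% ± 2.29. Without its highest library the mean was 8.18% in unstimulated HG3 and 5.26% in CpG-treated MEC2, so that 1 library set the direction of the difference in MEC2. In bulk RNA, fewer mitochondria or mitochondrial RNAs per cell and more RNA from the nucleus cannot be told apart, nor can fewer cells of a kind and less RNA per cell.

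In the 2 libraries of highest share the mRNAs and rRNAs were high. Unstimulated HG3 replicate 2 held the 15 mRNAs and rRNAs at 1.58 to 3.94 times the mean of the other 2 libraries of its group, with a median of 2.44. CpG-treated MEC2 replicate 2 held them at 1.65 to 4.15 times, with a median of 3.71. MT-ND3, which encodes a small subunit of complex I, was the most raised of the 15 in the first library (3.94 times) and the least raised in the second (1.65 times), whereas MT-ND6, the complex I subunit encoded on the minus strand, was the least raised in the first (1.58 times) and the most raised in the second (4.15 times). Among the tRNAs, MT-TY (tRNA-Tyr) stood at 9.14 times the other libraries of its group in HG3 and at 0.323 times in MEC2, where MT-TD (0.552 times) and MT-TP (0.803 times) were below the other libraries as well. The HG3 library was among the shallower ones, with 21228773 counts and the fewest rows detected of all 18 (20115). It had the highest share of ribosomal protein mRNAs of all 18 (11%, against 7.96 and 6.94% in the other 2 libraries of its group), while the nuclear long noncoding RNAs MALAT1 (314 CPM, against 398 and 313) and NEAT1 (394 CPM, against 667 and 374) lay within the range of its group. The MEC2 library, with 43683251 counts, had the highest levels in its group of MALAT1 (1183 CPM, against 474 and 495 in the other 2 libraries of its group) and NEAT1 (1261 CPM, against 483 and 348), and its ribosomal protein mRNAs took 2.91% of the counts, against 7.52 and 7.49%. These 2 genes were named after their values were seen, and the part of depth, of nuclear RNA and of these mRNAs in the share was not tested.

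As a mean over 18 libraries, mRNAs took 83.3% of the mitochondrially encoded counts, rRNAs 16.6% and tRNAs 0.0772%. These are shares of counts and not of RNA in the cell, and how well the libraries captured each kind of RNA was not tested. Genes of complex IV took 36.7%, those of complex I 34.2%, MT-CYB of complex III 6.60% and the ATP synthase genes 5.77%. Members of the minus strand, MT-ND6 and 8 tRNAs, took 0.287%, of which MT-ND6 made 86.5%.
MT-CO1, which encodes the core subunit of cytochrome c oxidase, had the highest share of the mitochondrially encoded counts (17.5%), followed by MT-RNR2, the rRNA of the large ribosomal subunit (14.3%), MT-ND4 (14.1%) and MT-CO3 (11.4%). MT-ND1 (8.14%), MT-CO2 (7.83%), MT-CYB (6.60%), MT-ATP6 (5.37%), MT-ND5 (4.82%), MT-ND2 (4.69%) and MT-RNR1 (2.38%) came next, and the short mRNAs MT-ND4L (1.22%), MT-ND3 (1.04%) and MT-ATP8 (0.401%) and the minus-strand MT-ND6 (0.254%) were last. Divided by gene length, the order changed. MT-CO3 led with 14.5% of these counts per kb, followed by MT-CO2 (11.5), MT-CO1 (11.3), MT-ND4 (10.2) and MT-RNR2 (9.14). Neighbours in this order such as MT-CO2 and MT-CO1 differed by less than their spread between libraries. At the low end were MT-RNR1, the rRNA of the small subunit (2.49% per kb), MT-ATP8 (1.94) and MT-ND6 (0.485). The labels name a Lexogen QuantSeq kit, with which a transcript is counted near its 3′ end, while the methods name a stranded reverse protocol. Under the first, length would not bear on the counts, so both orders are given.
The 2 rRNAs are separated only by MT-TV on the same precursor, and MT-RNR2 had 3.94 to 14.8 times the counts of MT-RNR1, with a median of 6.67 times taken on the log2 scale.

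**Figure D2:**
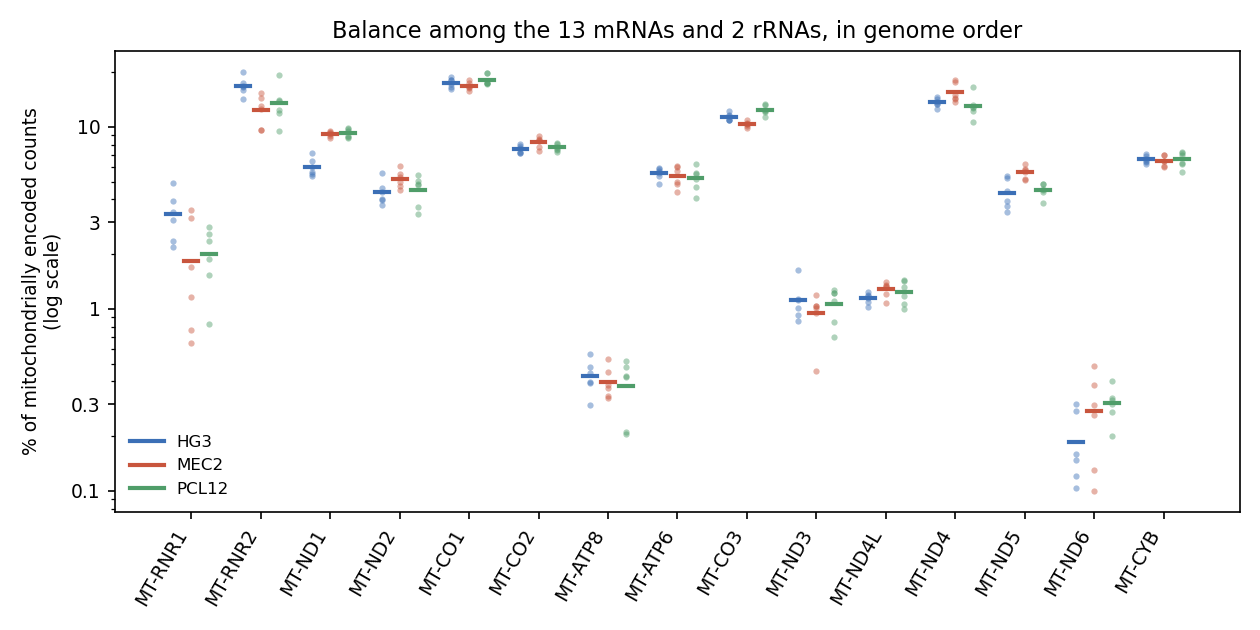
Percentage of the mitochondrially encoded counts (log scale, y axis) taken by each of the 13 mRNAs and 2 rRNAs in the order of the genome (x axis); points are libraries and bars are means of the 6 libraries of a line. MT-ND6 has the lowest mean in each line, with MT-ATP8 below it in 3 libraries, MT-RNR2 reaches 20.1%, and MT-ND1 of HG3 lies below that of MEC2 and PCL12.

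Of the tRNAs, 17 of 22 had at least 10 counts over the 18 libraries, and MT-TN had 1 count. MT-TK, MT-TG, MT-TR and MT-TL2 had 0 in every library. By counting error alone this allows up to 0.147 CPM in the library with the fewest counts (3 counts). These genes are shorter than the reads and touch or lie close to other genes of the same strand. How reads that reach into a neighbouring gene were counted is not known, and capture of tRNAs was not tested. The 0 counts therefore set no upper limit on the RNA in the cell. A mean of at least 10 counts per library was reached by 13 tRNAs. MT-TT led with a mean of 699 counts, followed by MT-TP (407) and MT-TI (tRNA-Ile, 215), and the lowest of the 13 were MT-TL1 (a tRNA-Leu, 10.1), MT-TF (tRNA-Phe, 24.0) and MT-TM (tRNA-Met, 35.4). The others were MT-TW (151), MT-TQ (135), MT-TE (111), MT-TS1 (62.1), MT-TA (59.9), MT-TY (41.1) and MT-TD (38.8). Below that mean were MT-TC with 71 counts over all libraries, MT-TH with 31, MT-TV with 26 and MT-TS2 with 21. Even MT-TT had only 0.392% of the mitochondrially encoded counts per kb, less than the lowest mRNA, MT-ND6. MT-TT follows MT-CYB on the plus strand and has no further gene of that strand between it and the control region.

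The stimulation through TLR9 was compared with unstimulated cells in each line, and 32 of the 37 members had the minimum of 10 counts needed for the edgeR test, among 31872 genes. No member passed an adjusted p of 0.05 (edgeR quasi-likelihood test with Benjamini-Hochberg adjustment over all genes) in HG3, MEC2, PCL12 or their mean, and 0 members had an unadjusted p under 0.05, which 3.73, 2.46, 2.09 and 4.04% of all genes had. The percentage of all genes called was 0.00314 in HG3 and in MEC2, 0 in PCL12 and 0.00941 for the mean, which is a low background for any group of genes. The median member had a log2 fold change of −0.76 (HG3), 0.49 (MEC2), −0.17 (PCL12) and −0.12 (over the 3 lines). DESeq2 and limma-voom called 0 members in these 4 contrasts as well, and DESeq2 gave 1 member (HG3) an unadjusted p under 0.05, which 2.7% of all genes had in its fit. Without replicates 2 and 3 of PCL12, which leaves 1 library for each treatment of this line and takes the spread from the other groups, its median member had −0.09. In this fit 0 members and 0% of all genes were called, and 0 members and 1.47% of all genes had an unadjusted p under 0.05.
For MT-CO1, the member with the most counts, the level after CpG against the unstimulated library of the same replicate had a log2 ratio of 0.02, −1.08 and −0.46 for the HG3 pairs. For MEC2 it was −0.48, 1.76 and −0.22, and for PCL12 −0.20, 0.48 and −0.85. Replicate 2 thus moved against the other replicates in MEC2 and PCL12 and made most of the difference in HG3. The fitted values were −0.61 ± 0.50 (SE) for HG3, 0.74 ± 0.50 for MEC2 and −0.18 ± 0.49 for PCL12.
In the CpG contrasts, MT-ND6 was the 1 member whose call depended on the replicate block. Its levels in HG3 were 246, 297 and 131 CPM without and 223, 112 and 66.9 CPM with CpG, lower in 3 of 3 pairs. Of the 28 members with counts in every library of HG3, 13 were lower in 3 of 3 pairs and 0 were higher, where 8.54% of all genes with such counts were lower and 13.4% higher. The summed share was lower in these 3 pairs too, and the members move with it, so that they are not independent of each other. In MEC2 0 of 28 members were lower and 0 higher in all pairs (15.3 and 9.82% of all genes), and in PCL12 2 were lower and 1 higher (11.8 and 10.3%). Without a term for the replicate the log2 fold change of MT-ND6 in HG3 was −0.82. With the replicate block it was −0.90 ± 0.21 (SE) with an adjusted p of 0.0161 (edgeR), in a fit that called 0.0722% of all genes lower. As a share of the mitochondrially encoded counts, MT-ND6 was not called in the same contrast with the block, with a log2 fold change of −0.34 and an adjusted p of 0.919.

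**Figure D3:**
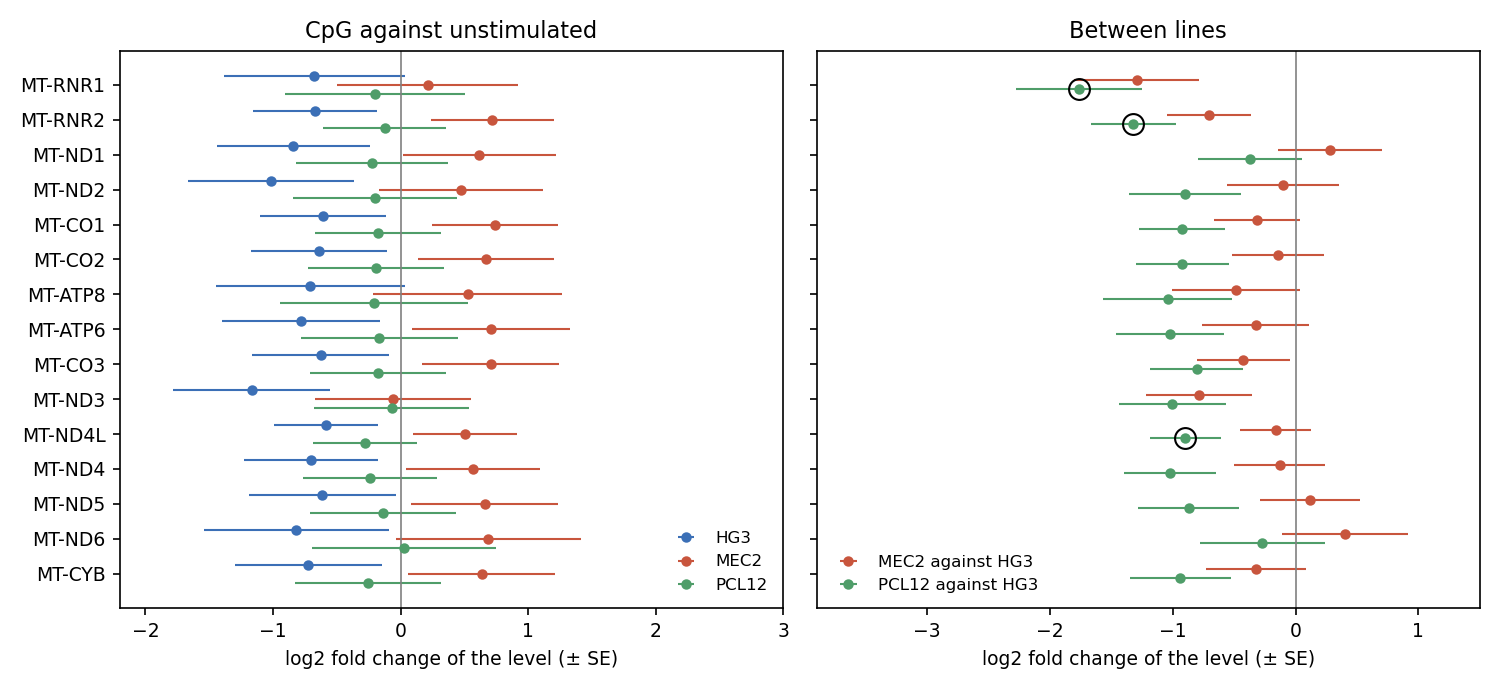
Log2 fold changes of the level with their SE (x axis) for the 13 mRNAs and 2 rRNAs (y axis), for CpG against unstimulated cells in each line (left) and between lines over both treatments (right); circles mark the members with an adjusted p under 0.05. In HG3 the 15 values lie below 0 and in MEC2 14 of them lie above 0 with SE bars that are wide, and the circled members are MT-RNR1, MT-RNR2 and MT-ND4L in PCL12 against HG3.

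The differences of the CpG effects between lines had 0 members called, against 0% of all genes for MEC2 against HG3 and MEC2 against PCL12 and 0.00314% for PCL12 against HG3, and 0 members had an unadjusted p under 0.05 in edgeR (4 and 1 in DESeq2 for MEC2 and PCL12 against HG3, none called, where 2.41 and 1.88% of all genes had such a p), and by edgeR 4.1% (MEC2 against HG3), 4.16% (PCL12 against HG3) and 3.23% (MEC2 against PCL12) of all genes had one. Some tRNAs separated the 3 stimulated from the 3 unstimulated libraries of a line without overlap. MT-TD (tRNA-Asp) had lower CPM in HG3, 1 of 32 members (3.12%) against a background of 3.94% of genes, and 0 members were free of overlap in CPM in MEC2 and PCL12, against 4.8 and 4.53%. As a share of the mitochondrially encoded counts, MT-TF was higher in HG3, MT-TM lower in MEC2 and MT-TE (tRNA-Glu) higher in PCL12, again 1 of 32 in each line, against 5.37, 2.57 and 2.98% of genes.

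Between lines, averaged over both treatments, MT-RNR2 had 12901 to 32073 CPM in HG3 (median 13538), 5580 to 25625 in MEC2 (median 8197) and 3968 to 9831 in PCL12 (median 7215). The ranges of PCL12 and HG3 did not overlap, whereas MEC2 overlapped both. MT-RNR2 was the 1 member of 32 (3.12%) that was free of overlap in CPM between PCL12 and HG3, against 13.3% of all genes. It was lower in PCL12 by the fit, with a log2 fold change of −1.32 ± 0.346 (SE) and an adjusted p of 0.00924 (edgeR).
MT-RNR1 had 1783 to 6880 CPM in HG3 (median 2838), 376 to 2362 in MEC2 (median 1361) and 471 to 1929 in PCL12 (median 967). Its range in PCL12 reached into that of HG3 with 1 library, unstimulated replicate 1. The log2 fold change in PCL12 against HG3 was −1.77 ± 0.515 with an adjusted p of 0.0271 (edgeR). MT-ND4L, a small membrane subunit of complex I, had 758 to 2072 CPM in HG3 and 370 to 818 in PCL12, ranges that overlapped, with a log2 fold change of −0.90 ± 0.291 and an adjusted p of 0.0330. These 3 were the members called by edgeR in PCL12 against HG3, all lower, 3 of 32 (9.38%) where 18.7% of all genes were called and 8.72% were called lower. The median member had a log2 fold change of −0.83, and 12 members had lower levels at an unadjusted p under 0.05, a threshold that 13.8% of all genes passed in this direction and 30.9% in either. DESeq2 called 9 members in this contrast, all lower, where it called 21.4% of all genes and 10.1% lower. They were MT-CO1, MT-CO2, MT-CYB, MT-ND3, MT-ND4, MT-ND4L, MT-ND5 and both rRNAs.
The stimulated and the unstimulated library of a replicate number belong to 1 series, so they are not independent samples of a line. With their counts summed, which leaves 3 units per line, MT-RNR2 (−1.30, adjusted p = 0.0341) and MT-RNR1 (−1.78, adjusted p = 0.0389) were called in PCL12 against HG3 by edgeR, where 13.2% of all genes were, and MT-ND4L was not (−0.87, adjusted p = 0.0684). No member was called in the other line contrasts of this fit, where 13.5% (MEC2 against HG3) and 3.63% (MEC2 against PCL12) of all genes were.
These calls rested on replicates 2 and 3 of PCL12. In PCL12 replicate 1, MT-RNR2 had 9831 CPM unstimulated and 9101 with CpG, above the other 4 PCL12 libraries. Without replicates 2 and 3 of PCL12 no member was called in this contrast, where 10.1% of all genes were, the median member had −0.31, 1 member was higher at an unadjusted p under 0.05 (20% of all genes passed in either direction), and the log2 fold changes were −0.87 for MT-RNR2 (adjusted p = 0.377), −1.21 for MT-RNR1 (0.440) and −0.56 for MT-ND4L (0.544). MT-RNR2 was called when each single library was left out, with adjusted p values up to 0.0497, which was reached without unstimulated HG3 replicate 2. The calls of MT-RNR1 and MT-ND4L were lost without any 1 of several libraries, with adjusted p values up to 0.0814 and 0.140. For MT-RNR1 these were unstimulated HG3 replicate 2, CpG-treated HG3 replicate 3 and each library of PCL12 replicates 2 and 3, and for MT-ND4L unstimulated HG3 replicate 2, CpG-treated HG3 replicates 1 and 2 and each library of PCL12 replicates 2 and 3. Without the 2 libraries of highest share, MT-RNR1 was not called (−1.42, adjusted p = 0.0763), while MT-CO1 was called lower (−0.66, adjusted p = 0.0371) and MT-TT higher (adjusted p = 0.00616) beside MT-RNR2 and MT-ND4L, in a fit that called 21.2% of all genes. By limma-voom MT-ND4L was not called (−0.83, adjusted p = 0.0713), and the rRNAs were.
In MEC2 against HG3 no member passed an adjusted p of 0.05 in edgeR, where 19.1% of all genes did, 3 members had an unadjusted p under 0.05 (30.8% of all genes), and DESeq2 called 3 (MT-RNR1 and MT-TQ lower, MT-TM higher). Without CpG-treated MEC2 replicate 2 edgeR called 3, MT-RNR2 (−1.23, adjusted p = 0.00140, against −0.70 and 0.171 with it), MT-CO1 (−0.86, adjusted p = 0.0267) and MT-TQ (−1.61, adjusted p = 0.0178), where 17.9% of all genes were called. The omission of 1 other library brought up 1 member each, MT-TM (2.08, adjusted p = 0.00656) without unstimulated HG3 replicate 2, MT-TQ (−1.31, adjusted p = 0.0454) without unstimulated HG3 replicate 3 and MT-RNR1 (−1.64, adjusted p = 0.0429) without unstimulated MEC2 replicate 2, in fits that called 19.5, 18.3 and 17.3% of all genes. In MEC2 against PCL12 no member was called by edgeR against 6.98% of all genes, 5 members were higher in MEC2 at an unadjusted p under 0.05 (8.47% of all genes were, and 19.0% passed in either direction), and DESeq2 called 1 (MT-ND5, higher). Without replicates 2 and 3 of PCL12 edgeR called 0 members there (5.87% of all genes), 0 had an unadjusted p under 0.05 (15.9% of all genes), and the median log2 fold change was 0.13. MT-TM was free of overlap in CPM between MEC2 and PCL12 (higher in MEC2, with 0.891 and 0.838 CPM in PCL12 replicate 1 with and without CpG), 1 of 32 members against 7.22% of all genes, and between MEC2 and HG3 0 members were, against 12%.

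A level can move with the whole mitochondrial share, so the balance was tested on its own, with each library scaled to its mitochondrially encoded counts. Scaled in this way, nuclear genes move with the mitochondrial share. The percentages of all genes on this scale, here and elsewhere, are thus no background for the balance among members alone. The adjusted p values of the fit are taken over all these genes. In this fit MT-TT was the 1 member called in the line and CpG contrasts. For the CpG contrasts 0.00628% (HG3), 0.00314% (MEC2), 0% (PCL12) and 0% (mean of the lines) of all genes were called, and for MEC2 against HG3 and MEC2 against PCL12, where edgeR called 0 members, 13% and 5.1%. Per 1000000 mitochondrially encoded counts it had 105, 133 and 132 in unstimulated and 132, 111 and 119 in CpG-treated HG3. MEC2 had 263, 215 and 194 unstimulated and 318, 257 and 231 with CpG. PCL12 had 341, 507 and 328 unstimulated and 575, 345 and 351 with CpG. The lines did not overlap, with HG3 lowest and PCL12 highest, and in MEC2 the value was higher after CpG in 3 of 3 pairs, as it was for 4 of the 28 members with counts in every library of MEC2 (3.13% of all genes), while 5 were lower in all pairs (6.63% of all genes).
The log2 fold change of MT-TT in PCL12 against HG3 was 1.74 ± 0.480 (SE) with an adjusted p of 0.00265 (edgeR), 1 of 32 members (3.12%) where 28.3% of all genes were called and 24.6% were called higher. It was called without each single library and without PCL12 replicates 2 and 3 (1.86, adjusted p = 0.0372), but not with the unstimulated libraries alone (1.67, adjusted p = 0.0582), fits that called 7.4 and 12.7% of all genes. With the counts of a replicate series summed it was 1.76 with an adjusted p of 0.0277, where 14.7% of all genes were called. In MEC2 against HG3 its log2 fold change was 1.01 with an adjusted p of 0.154.

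**Figure D4:**
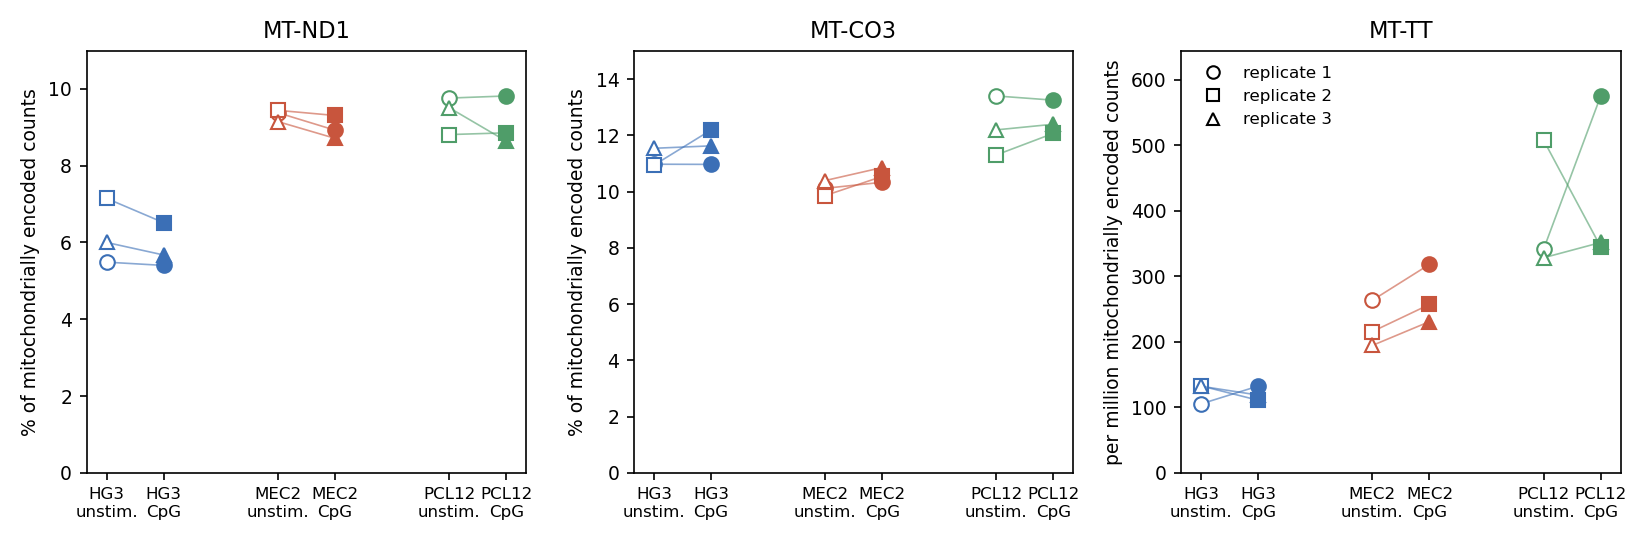
Share of the mitochondrially encoded counts taken by MT-ND1 and MT-CO3 (percent, y axes) and MT-TT (per 1000000, y axis) in unstimulated (open) and CpG-treated (filled) libraries of each line (x axis), with lines joining libraries of the same replicate. MT-ND1 lies at 5.40 to 7.15% in HG3 and at 8.64 to 9.82% in the other lines, and MT-TT lies at 105 to 133 in HG3, 194 to 318 in MEC2 and 328 to 575 in PCL12.

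The share of MT-ND1, a core subunit of complex I, was 5.40 to 7.15% of the mitochondrially encoded counts in HG3, 8.71 to 9.44% in MEC2 and 8.64 to 9.82% in PCL12. HG3 did not overlap with the other lines, which overlapped each other. MT-CO3, a core subunit of complex IV, was lowest in MEC2 (9.86 to 10.9%), with HG3 at 10.9 to 12.2% and PCL12 at 11.3 to 13.4%. Before rounding, MT-CO3 of MEC2 did not overlap with either line. In PCL12 replicate 1 with and without CpG, MT-ND1 took 9.82 and 9.76% and MT-CO3 13.3 and 13.4%, so that these values did not rest on replicates 2 and 3, and MT-ND5 took 4.84 and 4.53%. MT-ND5 was higher in MEC2 (5.12 to 6.23%) than in PCL12 (3.81 to 4.85%) without overlap, and MT-TM was higher in MEC2 (15.8 to 27.9 per 1000000) than in HG3 (2.88 to 9.80). By this measure of shares, members free of overlap were 4 of 32 (12.5%) in MEC2 against HG3 (MT-ND1, MT-TM and MT-TT higher, MT-CO3 lower), where 6.16% of all genes were. They were 2 (6.25%) in PCL12 against HG3 (MT-ND1 and MT-TT higher) against 14.6% of all genes, and 3 (9.38%) in MEC2 against PCL12 (MT-ND5 higher, MT-CO3 and MT-TT lower) against 4.81%. Apart from MT-TT in PCL12 against HG3 none of these passed the edgeR test of the shares. That test was fitted over all genes, nuclear ones included. With the counts of a replicate series summed, MT-ND4L in PCL12 against HG3 had an SE of 0.617 by share and of 0.298 by level. A call missed in the test of the shares thus does not show that the shares were equal.

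Ratios of members within a library are free of scaling, and 5 were tested in 4 comparisons each with exact two-sided permutation tests, 20 tests in all. The ratio of MT-RNR2 to MT-ND1, which lie on either side of MT-TL1, was 2.18 to 3.54 in HG3 (median 2.96, medians of ratios being taken on the log2 scale), 1.05 to 1.72 in MEC2 (median 1.36) and 1.00 to 2.20 in PCL12 (median 1.40). HG3 had the highest ratios, and of the other lines only unstimulated PCL12 replicate 2 (2.20) reached its range. The mean log2 ratio was lower than in HG3 by 1.06 in MEC2 and by 0.96 in PCL12, each with p = 0.005 in the exact permutation test, the smallest that its 400 arrangements can give, and an adjusted p of 0.025.
The ratio of MT-ND5 to MT-ND1, both mRNAs of complex I that lie far apart on the plus strand, was 0.547 to 0.983 in HG3, 0.546 to 0.681 in MEC2 and 0.441 to 0.547 in PCL12. PCL12 had the lowest ratios and shared with HG3 and MEC2 little more than its highest value. The mean log2 ratio was lower in PCL12 than in HG3 by 0.55 and higher in MEC2 than in PCL12 by 0.34, both with p = 0.005 in the exact permutation test and an adjusted p of 0.025.
In PCL12 replicate 1 the ratio of MT-RNR2 to MT-ND1 was 1.23 unstimulated and 1.25 with CpG, and that of MT-ND5 to MT-ND1 was 0.464 and 0.493, inside the range of the other PCL12 libraries in both cases. Without PCL12 replicates 2 and 3 the differences were 1.17 and 0.57 lower than in HG3 on the log2 scale, with 16 arrangements that cannot give a p under 0.0625. With the mean log2 ratio of a replicate series as the unit, 3 against 3, the 4 differences were of the same size, but the 20 arrangements cannot give a p under 0.1, which each of them had, with an adjusted p of 0.5. Without the 2 libraries of highest share the 4 differences had an adjusted p of 0.05 and so just missed the threshold, in the same directions.
The ratio of MT-ND6 to MT-ND5, neighbours on opposite strands, was 0.0178 to 0.105. Its mean was higher in PCL12 than in HG3 by 0.73 on the log2 scale, which did not pass the threshold (exact permutation test, adjusted p = 0.08). MT-RNR2 to MT-RNR1 and MT-CO3 to MT-CO1 passed the threshold in none of the line comparisons, with adjusted p values from 0.283 to 0.812 in the exact permutation test. The mean log2 ratio of MT-RNR2 to MT-RNR1 was higher than in HG3 by 0.65 in MEC2 and by 0.44 in PCL12. For CpG against unstimulated cells the 5 mean log2 differences were between −0.02 and 0.10, with adjusted p values from 0.803 to 0.995.

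The counts at the nuclear copies of mitochondrial genes were examined because reads of the 2 loci differ at few bases, as the stretches of MT-CO1 and MTCO1P12 above show. MTCO1P12 took 0.191 to 0.247% of the counts of the pair in HG3 and 8.43 to 10.8% in MEC2. In PCL12 replicate 1 it took 0.168% unstimulated and 0.235% with CpG, the level of HG3. In PCL12 replicates 2 and 3 it took 3.17 to 4.33%, between the other 2 levels and apart from both.
On a scale where PCL12 replicate 1 is 0 and the mean of MEC2 is 100%, these libraries stood at 31.0 and 42.3% (CpG, replicates 2 and 3) and at 43.2 and 33.8% (unstimulated). The 44 nuclear genes described above had a median of 31.9, 29.4, 31.3 and 31.3% of the MEC2 level in the same 4 libraries. MTATP6P1 (12.4 to 19.8% of its pair with MT-ATP6) and MTND2P28 (2.74 to 4.26% of its pair with MT-ND2), nuclear copies on chromosome 1 that are 98.5 and 98.4% identical to their mitochondrial genes, overlapped in all lines. Whether the reads counted at MTCO1P12 came from the nuclear copy or from mitochondrial RNA cannot be told apart in counts per gene. With the counts of the 3 copies added to their mitochondrial genes, MT-RNR1, MT-RNR2 and MT-ND4L were the members called in PCL12 against HG3. With those of MTCO1P12 added to MT-CO1, the ratio of MT-CO3 to MT-CO1 came to be lower in MEC2 than in HG3 by 0.23 on the log2 scale, with an exact permutation p of 0.01 and an adjusted p of 0.04.

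**Figure D5:**
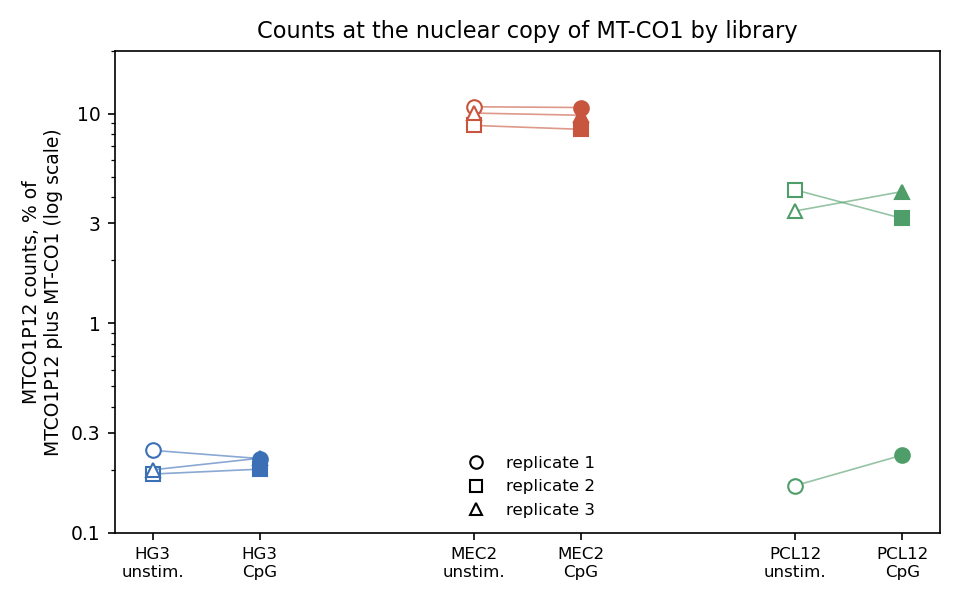
Counts at MTCO1P12 in percent of the counts at MTCO1P12 plus MT-CO1 (log scale, y axis) in unstimulated (open) and CpG-treated (filled) libraries of each line (x axis), with lines joining libraries of the same replicate. HG3 and PCL12 replicate 1 lie at 0.168 to 0.247%, MEC2 at 8.43 to 10.8%, and PCL12 replicates 2 and 3 between them at 3.17 to 4.33%.

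Nuclear genes that maintain mitochondrial DNA or make, cut, modify and degrade mitochondrial RNA were followed as a list of 58 symbols, of which 55 had a row and passed the minimum count. None was called after CpG in the mean of the 3 lines, where 0 had an unadjusted p under 0.05, nor in any single line by edgeR, where 1 (MEC2) had an unadjusted p under 0.05, and their median log2 fold changes were between −0.05 and 0.05 in the lines. Between lines 10 of 55 (5 higher, 5 lower) were called in MEC2 against HG3, 7 (6 higher, 1 lower) in PCL12 against HG3 and 9 (2 higher, 7 lower) in MEC2 against PCL12, against the 19.1, 18.7 and 6.98% of all genes given above.
SAMHD1, a phosphohydrolase that breaks down deoxynucleoside triphosphates, had 8.65 to 15.0 CPM in HG3, 30.3 to 85.9 in MEC2 and 59.1 to 85.0 in PCL12. It was higher than in HG3 by a log2 fold change of 2.43 in MEC2 (adjusted p = 1.07e-09, edgeR) and of 2.66 in PCL12 (adjusted p = 2.47e-10). TK2, the thymidine kinase of mitochondria, had 9.02 to 14.8 CPM in HG3, 6.35 to 15.0 in PCL12 and 1.04 to 3.62 in MEC2. TK2 was thus lowest in MEC2 without overlap, with a log2 fold change of −2.52 against HG3 (adjusted p = 1.46e-07) and of −2.09 against PCL12 (adjusted p = 9.98e-06).
ELAC2, the enzyme that cuts tRNA precursors at their 3′ end, was lower in MEC2, with a log2 fold change of −1.10 against HG3 (adjusted p = 1.62e-05, edgeR) and −0.87 against PCL12 (adjusted p = 0.000991). MRM3, a methyltransferase that modifies the large mitochondrial rRNA, was lower in MEC2 in both contrasts (−0.98 and −0.87), and TOP1MT, the mitochondrial topoisomerase, was lower in MEC2 than in HG3 (−0.94). REXO2, an exonuclease that degrades short RNAs in mitochondria, was higher in PCL12 than in HG3 by 1.06 on the log2 scale (adjusted p = 0.00381). GTPBP3 (0.70), PTCD2 (0.71) and DGUOK (0.68) were also higher in PCL12 than in HG3, and MTO1, which like GTPBP3 modifies mitochondrial tRNAs, was lower in MEC2 than in PCL12 (−0.89), as was DGUOK (−0.82), a mitochondrial deoxyguanosine kinase. Of these changes those that involve PCL12 were counted with its replicates 2 and 3 included, and without them 2 of 55 were called in PCL12 against HG3 (10.1% of all genes), SAMHD1 (2.58, adjusted p = 3.85e-07) and DGUOK (0.99, adjusted p = 0.0397), while REXO2 (1.13, adjusted p = 0.0733), GTPBP3 (0.34, 0.652) and PTCD2 (0.46, 0.498) were not. In MEC2 against PCL12, where 5.87% of all genes were called without them, the 5 called were TK2 (−2.49), MTO1 (−1.08), DGUOK (−1.12), ELAC2 (−0.89) and MRM3 (−0.94), with adjusted p values up to 0.0419. With the counts of a replicate series summed, 6, 2 and 4 of the 55 were called in MEC2 against HG3, PCL12 against HG3 and MEC2 against PCL12 (13.5, 13.2 and 3.63% of all genes), among them SAMHD1 and TK2 in the contrasts given for them, whereas GTPBP3, PTCD2 and both calls of DGUOK were lost (adjusted p = 0.0717 to 0.0881).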

How the data were processed

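RNA of 18 libraries (3 lines, with and without CpG, 3 replicates each) was sequenced in single reads. The authors deposited 1 table of raw gene counts, and their processing notes name FastQC, MultiQC, Trimmomatic, STAR and featureCounts on hg38, while versions, annotation and the treatment of reads with several positions are not given in the sources used here. The labels name a Lexogen QuantSeq kit and the methods a stranded reverse protocol, and which applies was not settled. Reads that match the mitochondrial genome and a nuclear copy can therefore be lost or placed at either.
Genes with at least 10 counts over the 18 libraries were tested with edgeR 4.0.16 (R 4.3.3, quasi-likelihood, TMM scaling, 1 model of 6 groups, Benjamini-Hochberg adjustment over 31872 genes), and again with each library scaled to its mitochondrially encoded counts for the balance. DESeq2 1.42.0, limma-voom (limma 3.58.1), other scalings and filters, the replicate block and the omission of libraries were alternatives. Those on the pseudogenes, on the balance in unstimulated libraries alone and on the replicate series as the unit were added after seeing the data. Ratios were compared with exact two-sided permutation tests, within treatment for lines and within lines for CpG, adjusted over 20 tests. CPM are counts per 1000000 of the deposited total, not TMM-scaled. The scripts were tested on simulated data. Gene models came from GENCODE 44, which gave transcripts equal to the hg38 sequence for 37 of 37 members.
The series' design text states that each replicate series held a stimulated and an unstimulated sample, so replicate numbers pair samples. Correlations of the deviations of paired libraries from their group means were 0.0928, 0.0579 and 0.203 (HG3), 0.0285, −0.0785 and 0.327 (MEC2) and 0.212, 0.149 and 0.216 (PCL12).
Named were all mRNAs and rRNAs, tRNAs with a mean of at least 10 counts that were called or had the 3 highest or 3 lowest means, and the 5 nuclear genes of smallest p in each contrast. Members and lists were chosen with earlier results of these data known, and further genes were named after their values were seen. Depth was 20382943 to 67308932 counts, and intervals and floors cover counting error only.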

Additional observations from a re-analysis of the deposited data

Results flagged for a closer look

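MT-TD (tRNA-Asp) and MT-TF (tRNA-Phe) moved in opposite directions after CpG in different lines, in every replicate pair, each on 1 of the 2 scales used. The level of MT-TD had log2 ratios of 0.75, 0.19 and 1.08 in PCL12 (mean 0.67) and −0.32, −2.73 and −0.36 in HG3 (mean −1.14), a difference of 1.81. In edgeR the difference of the CpG effects was 1.97 ± 1.07 (SE) with an unadjusted p of 0.0764 and an adjusted p of 1.00. As a share of the mitochondrially encoded counts its log2 ratios were 0.95, −0.47 and 2.14 in PCL12 and −0.29, −1.50 and 0.05 in HG3, so that the pairs no longer parted by line, and PCL12 replicates 2 and 3 are included in both. As a share of the mitochondrially encoded counts, MT-TF had log2 ratios of 1.11, 0.40 and 0.95 in HG3 (mean 0.82) and −0.72, −0.57 and −0.51 in MEC2 (mean −0.60), a difference of 1.42, with an unadjusted p of 0.386 in edgeR. For its level the log2 ratios were 1.08, −0.83 and 0.54 in HG3 and −1.14, 1.00 and −0.74 in MEC2, with both directions in each line. Both rest on few reads, 14 to 128 counts per library for MT-TD in these lines and 7 to 43 for MT-TF, and 2 tRNAs of this kind were found on looking through all members, lines and both scales. Of all genes with counts in every library of a line, 8.54% were lower in all HG3 pairs and 10.3% higher in all PCL12 pairs by level. By share 37.2% were higher in all HG3 pairs and 6.63% lower in all MEC2 pairs. How many such tRNAs random directions would give was not tested.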

How the results depend on the processing

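Of 265 values under other settings, single omissions aside, 215 were rated the same as in the main setting. Ratios had to keep their direction and side of the threshold. Counts of called genes had to stay within a set factor of the main count, and mean shares of the library within the SD of their group. For single genes 491 of 597 values kept their direction and side of the threshold, and 0 reversed.
The number of members called after CpG in HG3 was 1 with the replicate block (MT-ND6) and 1 without a filter (MT-ND3, −1.16, adjusted p = 0.0389), where 0.111% of all genes were called. The block changed no other member call of the CpG contrasts, and the ratios had adjusted p values of 0.362 to 0.996 with the block. In MEC2 against HG3 the members called, with the percentage of all genes called in parentheses, were 1 in unstimulated libraries alone (9.44%), 3 in DESeq2 (22%), 1 in limma-voom (21%), 2 with filterByExpr (30.2%), 5 without a filter (15.3%) and 3 without the 2 libraries of highest share (19.4%). In PCL12 against HG3 they were 1 in unstimulated libraries alone (9.18%), 9 in DESeq2 (21.4%), 2 in limma-voom (21.5%), 4 with filterByExpr (29.5%), 15 without a filter (14 lower, 15.3%), 4 without the 2 libraries of highest share (3 lower, 21.2%), 2 with replicate series summed (13.2%) and 0 without PCL12 replicates 2 and 3 (10.1%), and in MEC2 against PCL12 1 in DESeq2 (10.6%) and 9 without a filter (6.93%). For the balance they were 1 (limma-voom, 12.2%) and 2 (without the highest shares, 15.7%) in MEC2 against HG3, and 0 (unstimulated alone, 12.7%) and 3 (limma-voom, 29.2%) in PCL12 against HG3. By level, with scaling factors taken without the MT- rows, MT-ND4 (−1.06, adjusted p = 0.0473, edgeR) was called in PCL12 against HG3 beside MT-ND4L and the rRNAs, where 18.7% of all genes were.
Of the 55 nuclear genes, 5 (MEC2 against HG3), 1 (PCL12 against HG3) and 0 (MEC2 against PCL12) were called in unstimulated libraries alone, 11 in PCL12 against HG3 with library totals, 2 and 5 in the last 2 contrasts without PCL12 replicates 2 and 3, and 6, 2 and 4 in the 3 contrasts with the counts of a replicate series summed. Library totals shifted the median log2 fold change of all genes in PCL12 against HG3 by 0.127.
Without PCL12 replicates 2 and 3 the called ratios were −1.06 and −1.17 (MT-RNR2/MT-ND1) and −0.57 and 0.36 (MT-ND5/MT-ND1), with adjusted p values of 0.1, 0.3125, 0.357 and 0.3125. Without the 2 libraries of highest share they were −1.13, −1.03, −0.64 and 0.34 (adjusted p = 0.05 each). With replicate series as units they were −1.06, −0.96, −0.55 and 0.34 (adjusted p = 0.5 each). With MTCO1P12 added, MT-CO3/MT-CO1 in MEC2 against HG3 was −0.23. Ratios near 0 turned sign. Without the highest shares these were MT-RNR2/MT-RNR1 (−0.0849) and MT-ND5/MT-ND1 (−0.000604) after CpG and MT-ND6/MT-ND5 in MEC2 against HG3 (−0.0264). Without PCL12 replicates 2 and 3 they were MT-RNR2/MT-ND1 in MEC2 against PCL12 (0.11) and, after CpG, MT-CO3/MT-CO1 (−1.5e-05) and MT-ND6/MT-ND5 (0.0260). The mean share was 6.46% without rRNAs and 9.58% without the 100 highest genes in CpG-treated HG3, and 5.94 and 8.23% in unstimulated MEC2.
With each library left out in turn, members called were 0 to 3 in MEC2 against HG3 (16.4 to 20.3% of all genes) and 1 to 6 (without CpG-treated MEC2 replicate 2 or CpG-treated PCL12 replicate 1) in PCL12 against HG3 (16.4 to 19.7% of all genes; balance, 1 to 2, against 17.6 to 35.6%), and nuclear genes 6 to 11, 3 to 8 and 4 to 10 (MEC2 against PCL12, 5.15 to 9.15% of all genes). MT-RNR2/MT-ND1 was −1.16 to −0.98 in MEC2 against HG3, −1.12 to −0.84 in PCL12 against HG3 and −0.22 to 0.0629 in MEC2 against PCL12. MT-ND5/MT-ND1 was −0.64 to −0.43 in PCL12 against HG3, 0.30 to 0.38 in MEC2 against PCL12 and −0.00882 to 0.14 after CpG. After CpG, MT-RNR2/MT-RNR1 was −0.15 to 0.17, MT-CO3/MT-CO1 −0.0291 to 0.0429 and MT-ND6/MT-ND5 −0.22 to 0.14, the last −0.14 to 0.40 in MEC2 against HG3. The 4 called ratios had adjusted p values of 0.025 to 0.075. Causes were not tested.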

Other observations

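Within MEC2, 4 libraries differed in the balance of several members in a way that did not follow the treatment, a pattern seen on looking through the data and given without a test. MT-TP had 496 and 458 per 1000000 mitochondrially encoded counts in CpG-treated replicate 1 and unstimulated replicate 2, but 20.4 and 13.9 in replicate 3 with and without CpG. MT-RNR1 took 3.48 and 3.18% in the first pair of libraries and 0.651 and 0.767% in the second, while MT-ND6 took less in the first (at most 0.130%) than in the second (0.381 and 0.487%). MT-TY had 111 and 87 counts in the first pair and 2 and 6 in the second, and MT-TC had 15 in each of the first and 0 in each of the second, which allows up to 3. In the remaining MEC2 libraries MT-TP had 50.4 (CpG-treated replicate 2) and 135 (unstimulated replicate 1) per 1000000. It varied in the other lines too, from 52.1 to 273 in HG3 and from 52.3 to 439 in PCL12, so that such swings are not particular to MEC2.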
